A study of Mus musculus with 8 samples.

Results

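The desmosome genes examined here were 10 listed symbols, Dsp, Jup, Pkp1, Pkp2, Pkp3, Dsg2, Dsg3, Dsc2, Dsc3 and Ppl, taken from 18193 genes that the platform annotation names alone on at least 1 probe set. A probe set is a group of short DNA probes on the array that together read 1 transcript. Of the 10 genes, 9 had probe sets of their own, 22 in all, and Dsg3, the desmoglein of basal stratified epithelium, had none and was not analysed here. All 9 passed the level filter and were tested with 13586 genes in total. The tissue was labelled as the rear portion of the palate of BALB/c pups on postnatal day 1. Pregnant dams of every group were fitted with an osmotic pump under the skin, which delivered either physiological saline or nicotine at a daily dose of 1.5, 3.0 or 4.5 mg/kg. These 4 groups had 2 Affymetrix arrays each, named biological replicates. The labels leave unclear how many pups and litters stand behind an array, so p-values measure the spread between arrays.

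Desmosomes are spot-like junctions that tie the intermediate filaments of neighbouring cells together, keratins in epithelia and desmin in heart muscle. Desmogleins (Dsg) and desmocollins (Dsc) are cadherins that cross the membrane and bind those of the next cell. Plakoglobin (Jup) and the plakophilins (Pkp) hold the cadherin tails, and desmoplakin (Dsp) links the plaque to the filaments. Simple epithelia, such as the lining of the gut, and the heart use Dsg2, Dsc2 and Pkp2, while stratified epithelia, such as skin and the oral lining of the palate, add Dsg3, Dsc3 and Pkp1 as well as periplakin (Ppl), a plakin of the upper layers. Dsp, Jup and Pkp3 are found in desmosomes of both kinds of epithelium. The 9 measured genes were therefore read as 3 classes of 3 genes each: all desmosomes (Dsp, Jup, Pkp3), broad and simple epithelium (Pkp2, Dsg2, Dsc2), and stratified epithelium (Pkp1, Dsc3, Ppl). The label all desmosomes, or shared, stands for both kinds of epithelium and is not meant to cover the heart.

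The start regions of Dsp and Jup, which serve every desmosome, are shown because these 2 genes were the members matched in the RefSeq promoter table (build GRCm38.p6). Each window runs from 250 bases before to 50 bases after the gene's start, 5′ to 3′ on the gene's strand. Capitals mark the GC box, GGGCGG read on either strand.
Dsp (chr13:38151044-38151343, plus strand): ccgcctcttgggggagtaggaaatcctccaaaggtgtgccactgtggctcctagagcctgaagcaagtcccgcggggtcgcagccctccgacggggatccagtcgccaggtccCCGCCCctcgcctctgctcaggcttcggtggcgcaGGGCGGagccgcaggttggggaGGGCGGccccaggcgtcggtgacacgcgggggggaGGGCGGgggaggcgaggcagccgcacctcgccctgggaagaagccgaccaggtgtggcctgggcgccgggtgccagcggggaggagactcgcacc
Jup (chr11:100397741-100398040, minus strand): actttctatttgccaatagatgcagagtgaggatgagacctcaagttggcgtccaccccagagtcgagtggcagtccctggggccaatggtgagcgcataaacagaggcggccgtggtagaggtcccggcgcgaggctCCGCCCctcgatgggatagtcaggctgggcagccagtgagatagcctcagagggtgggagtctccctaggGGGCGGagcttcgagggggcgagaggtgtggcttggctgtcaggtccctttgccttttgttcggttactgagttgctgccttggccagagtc
The Dsp window held 4 GC boxes and 73.0% G and C, and the Jup window held 2 GC boxes and 60.7%. The median over all 32851 windows of the table was 52.7%, and 35.7% of them held at least 1 GC box. Neither window held the TATA box letters TATAAA on either strand, which 13.6% of all windows held. The E-box, CANNTG on either strand, had 1 match in the Dsp window, 0 in the Jup window, and at least 1 in 72.3% of all windows.

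The arrays differed in markers of other tissues and in the 3′/5′ ratio of actin, before any desmosome gene is considered. Median intensities per array lay between 20.7 and 25.4. Summed intensities of 12 intestine markers were 131 to 906 in the 6 nicotine arrays and 14928 to 20843 in the saline arrays, and those of 12 stomach markers were 248 to 427 and 11721 to 12015. Nicotine 1.5 replicate 1 stood apart through 14 stratified epithelium markers, which summed to 13350 there, against 837 to 1587 in the other nicotine arrays and 710 and 1462 in saline. Krt1 at 3884 and Krt10 at 5367 made up most of that sum, while Trp63 at 114 lay below saline replicate 1, at 136, and Krt4 at 117 below nicotine 3.0 replicate 1, at 125. Nicotine 1.5 replicate 2 stood apart through 14 heart muscle markers (20804, against 4280 to 5049 in the other nicotine arrays and 1969 and 3251 in saline) and through liver markers (20547, beside 18784 and 39307 in the saline arrays and at most 220 elsewhere). Lung markers, 10 in number, summed to 288.5 and 11626 at nicotine 1.5, 13786 and 4031 at 3.0, and 1458 and 1629 at 4.5, against 774 and 678 in saline, and 8 kidney markers to at most 131 in the nicotine arrays, against 204 and 2361 in saline. The 13 palate patterning markers summed to 785 to 1278 in the nicotine arrays and to 698 and 415 in saline, 7 of 8 tested had a positive value for the averaged doses (median 0.74), and 1 rose (Meox2, a homeobox gene, at 1.54 ± 0.31, adjusted p = 0.0309). Of these 13, 5 or 6 exceeded a log2 level of 5.74 (the 60th percentile over probe sets) in each array. Actin, read near its 3′ and its 5′ end as a measure of RNA integrity, had a 3′/5′ ratio of 0.95 to 1.39 in nicotine arrays and 1.65 and 1.74 in saline arrays. The part of these differences in the results below was not tested.

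Dsg2 and Dsc2, the cadherin pair of simple epithelium, fell in the nicotine arrays, while no other member passed the test against saline. Averaged over the 3 doses, Dsg2 fell by 2.75 ± 0.29 log2 units (SE; adjusted p = 0.00407) and Dsc2 fell by 2.63 ± 0.38 (adjusted p = 0.0118). Thus 2 of 9 members fell and 0 rose, beside 10.2% of all genes tested that changed, 5.40% that fell and 4.75% that rose. The median over the 9 members was -0.15, against 0.07 over all genes tested. Both genes lay below both saline arrays in each of the 6 nicotine arrays, as did 12.6% of all genes tested, and no member lay above saline in all 6, as 16.8% of all genes did. In bulk tissue, fewer cells of a type and less RNA per cell cannot be told apart.

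Dsg2, the desmoglein of simple epithelia and heart, was read by its brightest probe set, 1439476_at. Its deposited intensities were 417 and 416 in saline replicates 1 and 2, then 64.5 and 132 at nicotine 1.5, 33.6 and 30.5 at 3.0, and 13.8 and 39.4 at 4.5. The saline arrays lay within 2 units of each other and the groups of each dose did not overlap with them. Nicotine 1.5 replicate 2, an array with high heart, liver and lung markers, was the highest of the nicotine arrays. The part of these tissues in its Dsg2 level was not tested. Against saline, the log2 fold changes were -1.92 ± 0.36 at 1.5 mg/kg/day (adjusted p = 0.0476), -3.06 ± 0.36 at 3.0 (adjusted p = 0.00876) and -3.28 ± 0.36 at 4.5 (adjusted p = 0.00594). The call at 1.5 mg/kg/day held in 4 of 17 alternative settings (adjusted p from 0.0337 to 0.130) and that at 3.0 was lost without either of its own arrays (adjusted p up to 0.104), whereas the calls for the mean of the doses and for 4.5 held in all 17.

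**Figure D1:**
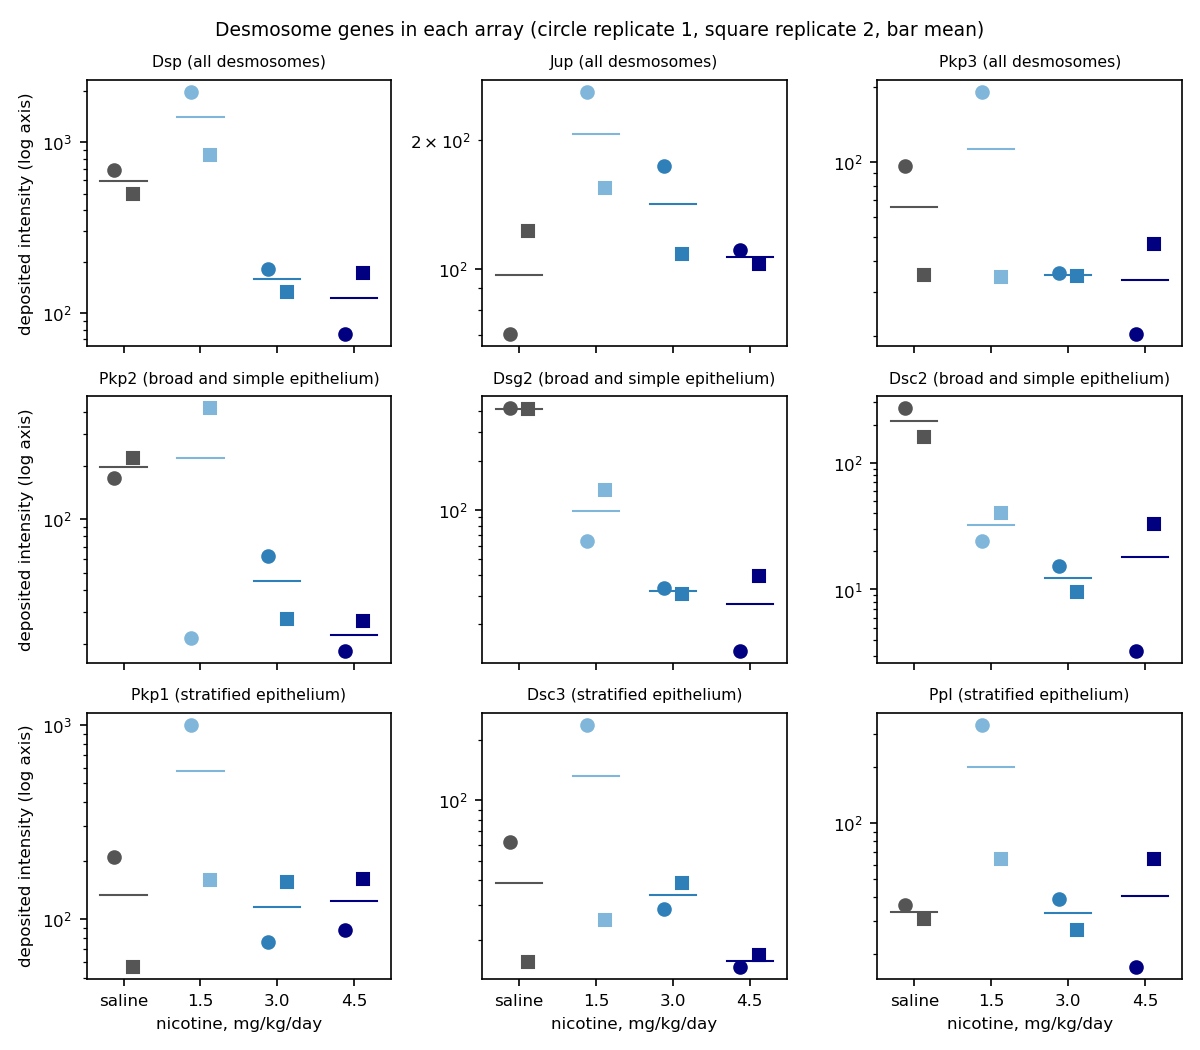
Deposited intensity of the 9 measured desmosome genes in each array, on log axes that differ between panels, by group from saline to nicotine 4.5 mg/kg/day; circles are replicate 1, squares replicate 2 and bars the mean of the 2 arrays. Dsg2 and Dsc2 are highest in the saline arrays, while Dsp, Jup, Pkp1, Pkp3, Dsc3 and Ppl peak in nicotine 1.5 replicate 1 and Pkp2 in nicotine 1.5 replicate 2.

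Dsc2, the desmocollin that pairs with Dsg2 in simple epithelia, had intensities of 268 and 161 in the saline arrays. They were 24.3 and 39.9 at nicotine 1.5, 15.2 and 9.56 at 3.0, and 3.29 and 32.9 at 4.5. All 6 nicotine arrays were thus low, and the 2 arrays of the highest dose differed most among themselves. Dsc2 fell by 2.92 ± 0.47 log2 units at 3.0 mg/kg/day (adjusted p = 0.0268), and its value at 4.5 was -2.76 ± 0.47 (adjusted p = 0.0236). At 1.5 mg/kg/day the fold change of -2.21 ± 0.47 did not pass (adjusted p = 0.0617). The added constant of 16 shrinks folds of values this low. With a constant of 1 the mean of the doses gave a value of -3.52, and the single-dose calls at 3.0 and 4.5 no longer passed. These 2 calls were also lost without either array of nicotine 3.0, and that at 4.5 without nicotine 4.5 replicate 1 (adjusted p up to 0.218 and 0.0744), while the call for the mean of the doses held in all 17 settings.

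At 1.5 mg/kg/day 1 of 9 members fell (Dsg2) and 0 rose, beside 2.48% of all genes tested that changed, 1.75% that fell and 0.729% that rose. At 3.0 mg/kg/day 2 of 9 fell and 0 rose, beside 3.72% that changed, 2.38% that fell and 1.35% that rose. At 4.5 mg/kg/day 2 of 9 fell and 0 rose, beside 6.87%, 3.97% and 2.91%. By position alone, 2 members lay below both saline arrays in both arrays at 1.5 (21.7% of all genes) and 3 above (Dsp, Jup and Ppl; 27.4% of all genes). At 3.0 and at 4.5, 4 members lay below (Dsp, Pkp2, Dsg2 and Dsc2; 25.5% and 24.8% of all genes) and 0 above (34.7% and 32.2%).

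Probe sets of 1 gene did not all read alike, and those whose names end in _s_at can match several transcripts. Dsg2 had 6, of which 4 passed the level filter. Probe sets 1449740_s_at and 1449741_at came next after the brightest, both at a mean log2 level of 6.1. The first moved with the brightest (-2.76 ± 0.21 for the averaged doses, adjusted p = 0.00104), and the dimmer 1425619_s_at fell by 0.98 ± 0.15 (adjusted p = 0.0123). Probe set 1449741_at went the other way, with intensities of 47.1 to 89.9 in the nicotine arrays and 30.3 and 45.7 in saline, and its value of 0.58 ± 0.25 did not pass (adjusted p = 0.172). Averaging all 6 gave a Dsg2 fold change of -1.09, smaller in size than that of the brightest probe set. The second Dsc2 probe set, 1421156_a_at, lay below the filter on average but showed the same order, with 2.01 to 7.85 in the nicotine arrays and 77.3 and 53.2 in saline.

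Pkp2, the plakophilin of simple epithelia and heart muscle, had intensities of 170 and 221 in the saline arrays and 21.5 and 419 at nicotine 1.5. The other nicotine arrays lay at 62.5 and 27.3 (3.0) and at 18.3 and 26.7 (4.5). Nicotine 1.5 replicate 2 was the highest of all 8 arrays and replicate 1 among the lowest, so this dose spanned the saline arrays, while the 3.0 and 4.5 arrays all lay below them. Its fold change against saline was -1.56 ± 0.82 over the doses together (adjusted p = 0.242) and -2.32 ± 1.0 at 4.5 (adjusted p = 0.179), and neither passed. In nicotine 1.5 replicate 2, 13 of 14 heart muscle markers exceeded the 60th percentile, against 4 to 8 in the other nicotine arrays and 4 and 5 in saline. All 11 liver markers did so there, against 0 or 1 in the other nicotine arrays and 10 and 11 in saline, and 8 of 10 lung markers did, against 2 to 8 in the other nicotine arrays and 2 in both saline arrays. Their part in the Pkp2 level was not tested. Without this array Pkp2 had an adjusted p of 0.0136 to 0.0451 in the 4 comparisons with saline, but that setting takes out the array where Pkp2 was highest, so that a lower value at 1.5 and over the doses together was fixed by the choice, and it leaves 1 array at the 1.5 dose. Without replicate 1 of that dose, the value at 1.5 turned to 1.14. Calls for Pkp2 at 3.0 and 4.5 without either 1.5 array rest on the same saline, 3.0 and 4.5 arrays as the main fit. Such a setting takes the spread between the 1.5 arrays (SD 2.49 on the log2 scale) out of the error that all groups share. These calls therefore add no evidence about 3.0 and 4.5. The setting without the 2 arrays highest in liver genes leaves out saline replicate 2 and nicotine 1.5 replicate 2. It again takes out the array where Pkp2 was highest, together with the higher saline array. Since 1 array is left in each of these groups, its calls for Pkp2 are given no weight. The second probe set, 1429183_at, peaked in the same array at 242, against 11.4 to 42.7 in the other nicotine arrays and 67.6 and 118 in saline.

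**Figure D2:**
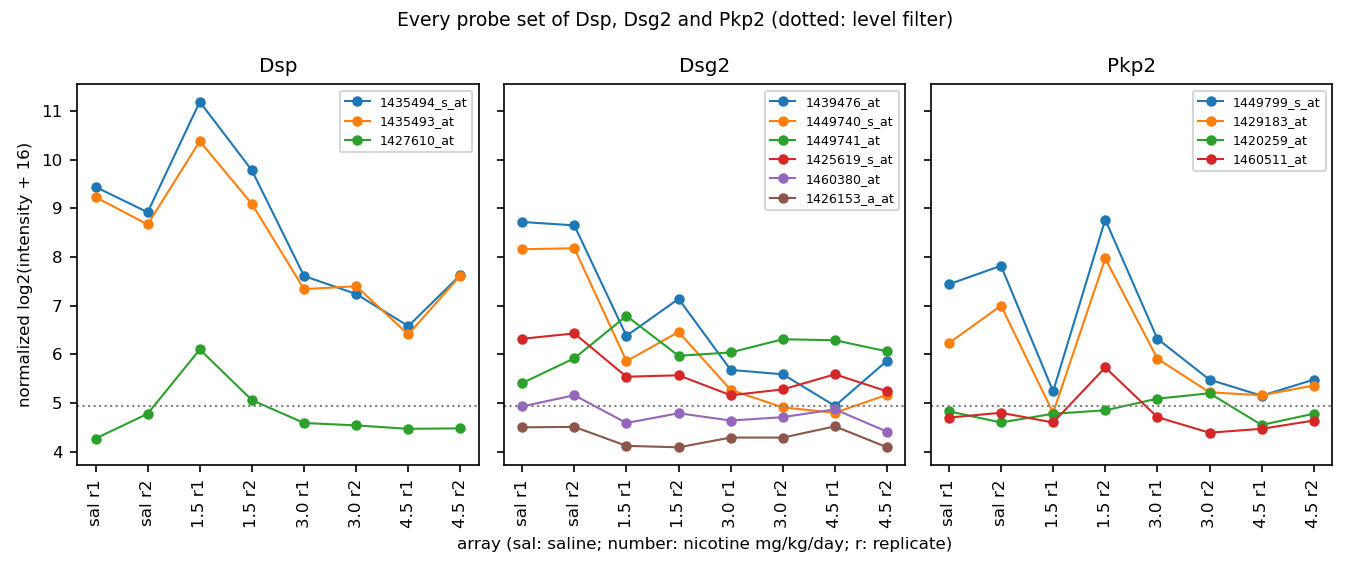
Normalized log2(intensity + 16) of every probe set of Dsp, Dsg2 and Pkp2 in the 8 arrays, from saline to nicotine 4.5 mg/kg/day, with the level filter of 4.94 as a dotted line. The 2 brightest probe sets of each gene follow one another, and 1449741_at of Dsg2 lies higher in the nicotine arrays than in saline.

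Dsp, the plakin that anchors filaments in every desmosome, stood above saline at the lowest dose and below it at the higher doses, though no dose passed against saline. Intensities of 1435494_s_at were 684 and 498 in the saline arrays, 1959.9 and 843 at nicotine 1.5, 181 and 133 at 3.0, and 75.0 and 171 at 4.5. Both 1.5 arrays were above the saline arrays and all 4 arrays of the higher doses below them. Fold changes were 1.31 ± 0.53 at 1.5 (adjusted p = 0.220), -1.76 ± 0.53 at 3.0 (adjusted p = 0.108) and -2.07 ± 0.53 at 4.5 (adjusted p = 0.0628). The call at 4.5 was gained in 4 of 17 settings: with values as deposited, without either nicotine 1.5 array, and without the 2 arrays highest in liver genes (lowest adjusted p = 0.0351). The last of these settings takes out the lower saline array for Dsp, so that a lower value at 4.5 was fixed by the choice. Leaving out a nicotine 1.5 array keeps the saline and 4.5 arrays. It takes the spread between the 1.5 arrays (SD 1 on the log2 scale) out of the error that all groups share. For the second probe set, 1435493_at, nicotine 1.5 replicate 2 lay between the saline arrays on the normalized scale, at 9.09, with saline at 9.23 and 8.67.

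Jup, plakoglobin, which binds cadherin tails in desmosomes and also in adherens junctions, varied least of the 3 shared genes. It had intensities of 70.2 and 123 in saline, 259 and 154 at nicotine 1.5, 174 and 109 at 3.0, and 111 and 103 at 4.5. Both arrays at 1.5 lay above the saline arrays, and the groups at 3.0 and 4.5 overlapped with saline. Jup stood at 0.69 ± 0.31 over the doses together (adjusted p = 0.181) and at 1.13 ± 0.38 at 1.5 (adjusted p = 0.161). Without the 2 arrays highest in liver genes, the values were 1.22 and 1.94. For Jup that setting takes out the higher saline array and the lower nicotine 1.5 array. Higher values in both comparisons were thus fixed by the choice, and 1 array was left in each of these groups.

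Pkp3, a plakophilin of both kinds of epithelium, had 96.3 and 35.2 in the saline arrays, 190 and 34.3 at nicotine 1.5, 35.7 and 34.7 at 3.0, and 20.2 and 46.8 at 4.5. Only nicotine 1.5 replicate 1 lay above both saline arrays. The fold change with the mean of the doses was -0.15 ± 0.58 (adjusted p = 0.879).

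**Figure D3:**
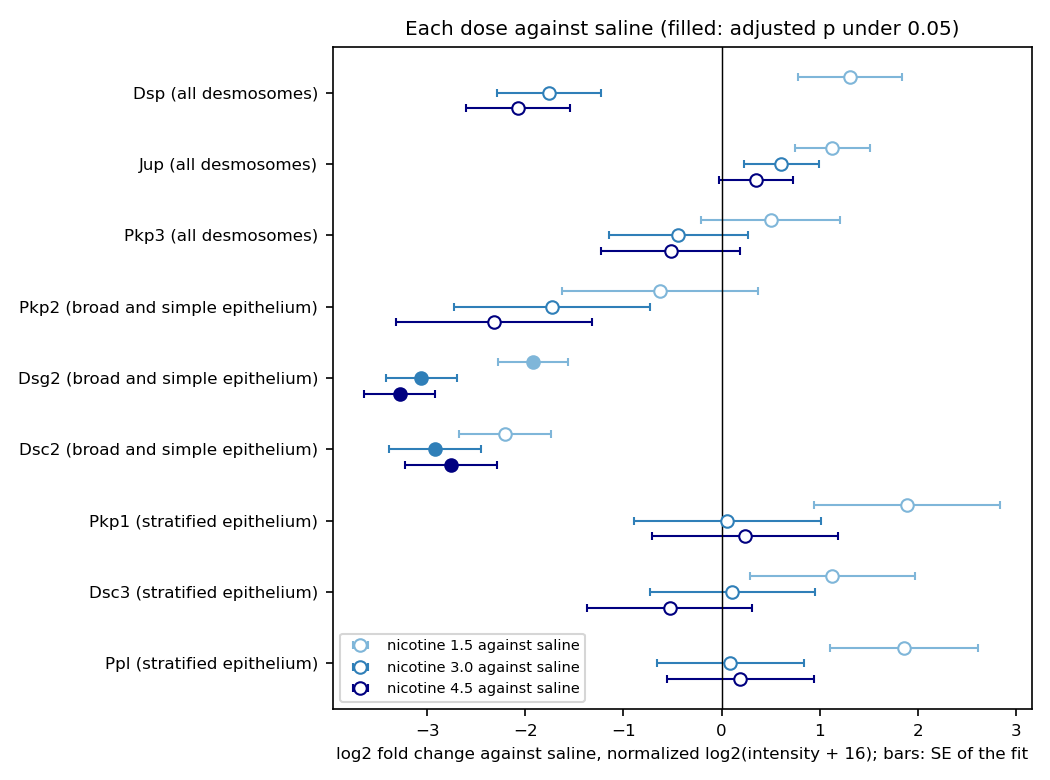
Log2 fold change of each dose against saline for the 9 measured desmosome genes, as the fit gives it on the log2(intensity + 16) scale, with bars of 1 SE; filled points passed an adjusted p of 0.05. The filled points are Dsg2 at all 3 doses and Dsc2 at 3.0 and 4.5 mg/kg/day.

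The stratified members were high in a single array, nicotine 1.5 replicate 1. Pkp1, the plakophilin of stratified epithelium, had intensities of 209 and 56.7 in saline, 1001 and 158 at nicotine 1.5, 76.1 and 154 at 3.0, and 87.5 and 161 at 4.5. Outside replicate 1 of the 1.5 dose the nicotine values lay within the range of the 2 saline arrays. Dsc3, the desmocollin of basal layers, was at 239 in the same array and at 14.7 to 38.8 in the other nicotine arrays, with 62.1 and 15.5 in saline. Ppl, which also enters the cornified envelope, was at 338 there and at 17.0 to 64.4 in the other nicotine arrays, with 36.4 and 30.7 in saline.

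None of these 3 genes passed in any comparison with saline in the main setting. With the mean of the doses the values were 0.73 ± 0.77 for Pkp1, 0.23 ± 0.69 for Dsc3 and 0.72 ± 0.61 for Ppl (adjusted p from 0.457 to 0.841). At 1.5 mg/kg/day they were 1.89 ± 0.95, 1.13 ± 0.84 and 1.86 ± 0.75 (adjusted p from 0.218 to 0.477), where the 2 arrays of the dose differed widely. These errors leave room for changes of more than 1 log2 unit in either direction at the higher doses, so a missed threshold does not show that the levels were alike. Ppl passed at 1.5 only without replicate 2 of that dose, the lower of its 2 arrays, which leaves 1 array. Dsc3 passed at 1.5 and 4.5 only without the 2 arrays highest in liver genes. For Dsc3 these were the lower saline array and the lower nicotine 1.5 array. A lower value at 4.5 was thus fixed by the choice, and at 1.5 a single array at 239 was set against a single saline array at 62.1.

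The classes can be set side by side as the median, over the genes of a class, of each gene's log2 level minus its own mean in saline. The broad and simple class had shifts of 0.03 and -0.03 in saline, -2.39 and -1.54 at nicotine 1.5, -2.76 and -3.07 at 3.0, and -3.46 and -2.15 at 4.5. In the stratified class the shifts were 0.57 and -0.57 in saline, 3.03 and 0.47 at nicotine 1.5, -0.04 and 0.26 at 3.0, and -0.46 and 0.63 at 4.5. The median of the broad class was low in every nicotine array, but in nicotine 1.5 replicate 2 its genes ran from -2.03 to 1.14, with Pkp2 the highest, whereas the stratified class left the range of the saline arrays clearly in 1 array. The shared class had 0.26 and -0.26 in saline, 1.61 and 0.60 at nicotine 1.5, -0.43 and -0.45 at 3.0, and -0.93 and -0.11 at 4.5. The median over all genes tested was 0.04 to 0.06 in each nicotine array. No test was made of a class.

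**Figure D4:**
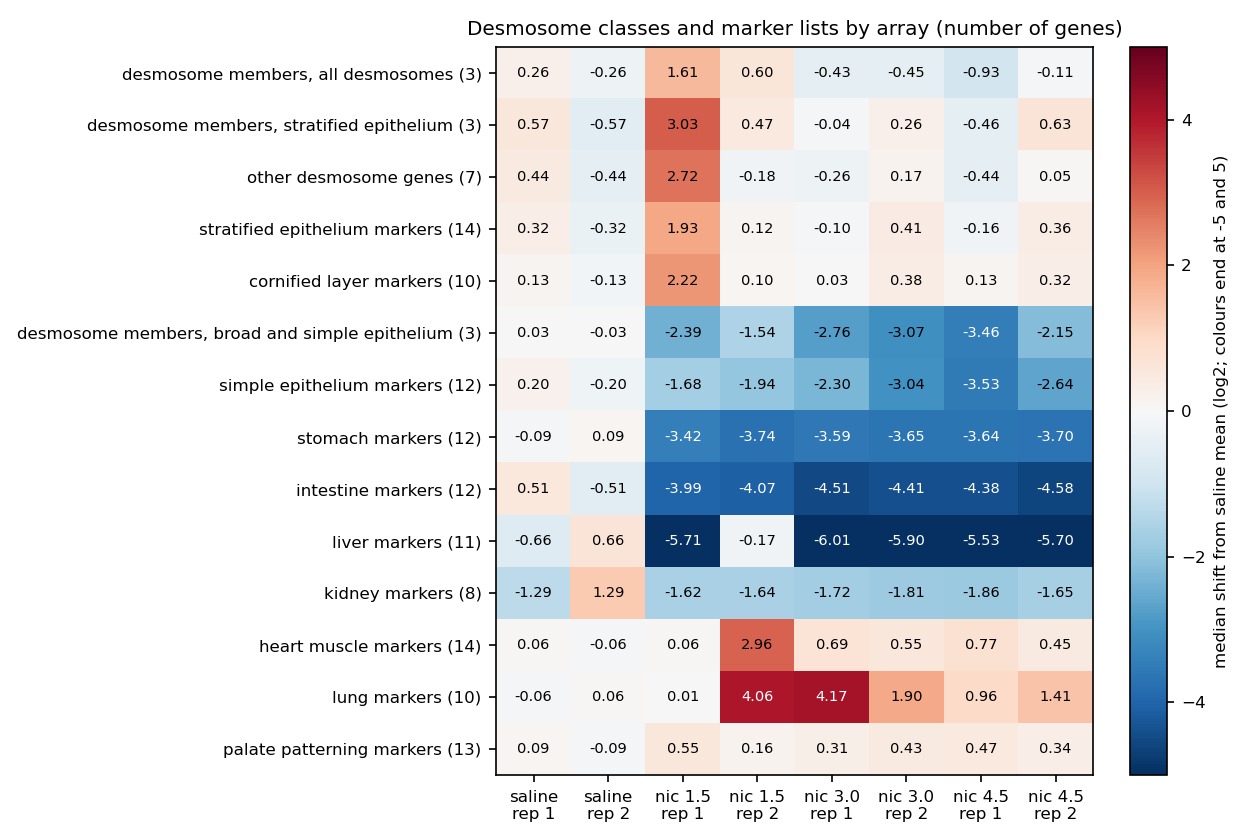
Median shift from the saline mean (log2) of the desmosome classes and of marker lists in each of the 8 arrays, from saline to nicotine 4.5 mg/kg/day, with the number of measured genes in brackets; red is higher and blue lower than saline. The median of the broad and simple class is low in every nicotine array beside simple epithelium, stomach and intestine markers, and the stratified class is high in nicotine 1.5 replicate 1 beside stratified and cornified markers.

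Most markers of simple epithelium were low in the same arrays as Dsg2 and Dsc2. Of 12 simple epithelium markers, 9 fell and 0 rose with the mean of the doses (median -2.64), among them the intestinal keratin Krt20 at -2.66 ± 0.13, the adhesion molecule Epcam at -3.45 ± 0.45, the epithelial transcription factor Elf3 at -2.36 ± 0.23, and the paired keratins Krt8 at -2.73 ± 0.39 and Krt18 at -2.79 ± 0.64 (adjusted p from 0.000183 to 0.0410). Cdh1, the cadherin of adherens junctions, fell by 2.13 ± 0.35. Of all genes tested, 5.40% fell and 4.75% rose. Cldn3 was the 1 marker of the 12 with a positive value, at 81.9 to 199 in the nicotine arrays and 86.0 and 118 in saline. Krt7 in nicotine 1.5 replicate 2, at 235, lay between the saline arrays, at 299 and 224. The summed intensity of the 12 markers was 522 to 2151 in the nicotine arrays and 5921 and 8874 in saline. Krt20 and Vil1 stand in the intestine list too, where 11 of 11 tested genes fell, and 10 of 11 tested stomach markers fell. The part of gut RNA in the fall of Dsg2 and Dsc2 was not tested.

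Of 14 tested stratified epithelium markers, 0 rose and 0 fell with the mean of the doses by limma, and 0 had an unadjusted p under 0.05 (median 0.51). Of all genes tested, 10.2% changed and 30.8% had an unadjusted p under 0.05 in that comparison. Krt5 and Krt14, the keratins of the basal layer, stood at 0.66 ± 0.65 and 0.91 ± 0.81, Krt1 and Krt10, those of the upper layers, at 1.81 ± 1.04 and 1.49 ± 1.10, and Trp63, a master regulator of stratified epithelia, at 0.16 ± 0.51 (adjusted p from 0.278 to 0.857). In nicotine 1.5 replicate 1 all 14 exceeded the 60th percentile, against 7 to 10 in the other nicotine arrays and 10 and 6 in saline.

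Most other desmosome genes were also highest in nicotine 1.5 replicate 1. Of 9 listed, 7 had a probe set and were tested, and 0 rose or fell against saline at any dose by limma, with 0 at an unadjusted p under 0.05 in those comparisons. Perp, a membrane protein needed for desmosomes of stratified epithelium, had 544 and 297 in saline, 1492 and 364 at nicotine 1.5, 152 and 265 at 3.0, and 72.8 and 233 at 4.5. In nicotine 1.5 replicate 1 it was high, as were Dsg1a at 251, Dsg1b at 211, Dsc1 at 662, Evpl (envoplakin, the partner of Ppl) at 272 and Cdsn (corneodesmosin, of the cornified layer) at 486. Each of these 5 was at most 83.7 in the other nicotine arrays and at most 62.7 in saline. Dsg1a and Dsg1b are close copies, and their probe sets may not tell them apart. Pkp4, a plakophilin relative found also outside desmosomes, was at 265 to 366 in nicotine arrays and 436 and 358 in saline with its brighter probe set (-0.33 ± 0.17, adjusted p = 0.233). Its dimmer one, 1438677_at, fell by 0.93 ± 0.19 (adjusted p = 0.0308).

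Genes with the most similar pattern over the 8 arrays were named for 1 member of each class by Pearson's r of log2 levels, as a description over arrays that share groups. For Pkp1 they were Krt5 (r = 0.999), Krt14 (0.990), Dmkn (0.984) and Muc15 (0.981). Pkp1 thus followed both keratins of the basal layer. For Dsp they were Evl (0.968), Zfp445 (0.967), Preb (0.963) and Cntd1 (0.956), and for Pkp2 they were Snrnp35 (0.975), Tspoap1 (0.966), Nsmce2 (0.954) and Rbpms (0.953). Among the members, r was 0.96 for Dsg2 with Dsc2, 0.92 for Pkp1 with Dsc3, 0.93 for Pkp3 with Dsc3 and 0.90 for Pkp3 with Pkp1. Other pairs within a class had 0.89 (Pkp1 with Ppl), 0.83 (Dsc3 with Ppl), 0.76 (Pkp2 with Dsg2) and 0.63 (Pkp2 with Dsc2). In the shared class r was 0.76 for Dsp with Pkp3, 0.4 for Dsp with Jup and 0.39 for Jup with Pkp3. Between the cadherins of the broad and stratified classes r was 0.04 (Dsg2 with Dsc3) and 0 (Dsc2 with Dsc3). Pkp1, Dsc3 and Pkp3 all peaked in nicotine 1.5 replicate 1, and r without that array was not computed.

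**Figure D5:**
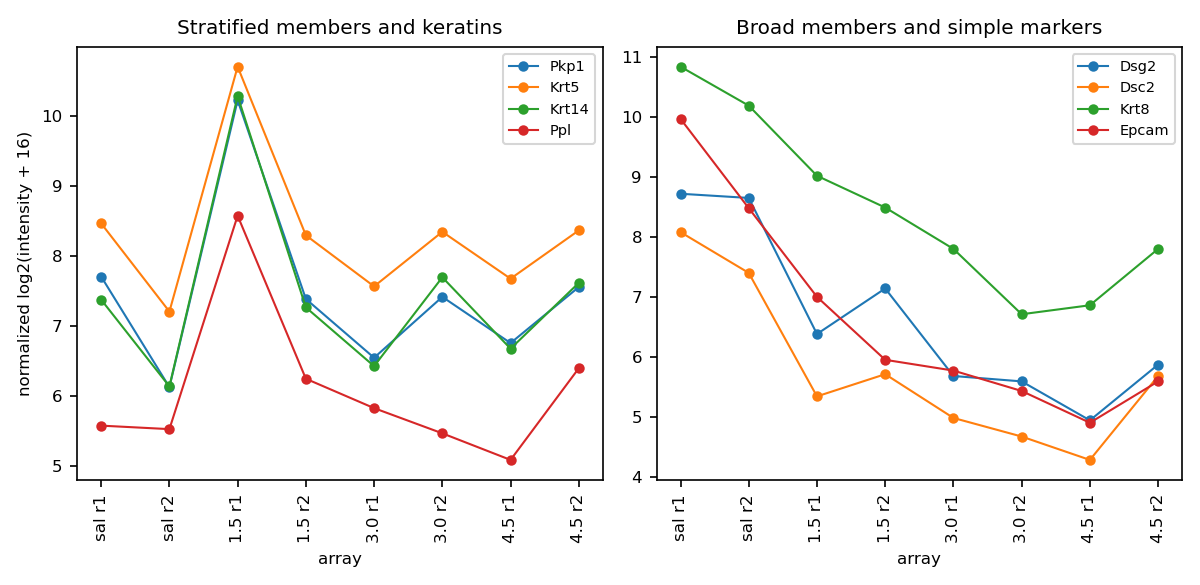
Normalized log2(intensity + 16) in the 8 arrays, from saline to nicotine 4.5 mg/kg/day, of Pkp1 and Ppl with the basal keratins Krt5 and Krt14 (left) and of Dsg2 and Dsc2 with the simple epithelium markers Krt8 and Epcam (right). Pkp1 follows Krt5 and Krt14 in every array, and Dsg2 and Dsc2 are highest in saline together with Krt8 and Epcam.

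In a linear fit over the doses 0, 1.5, 3.0 and 4.5, the log2 level of Dsg2 changed by -0.73 ± 0.11 for each mg/kg/day (adjusted p = 0.0475), the 1 member of 9 that passed, beside 0.802% of all genes tested (0.515% lower and 0.287% higher). That call held in 6 of 17 settings. Slopes were -0.60 ± 0.15 for Dsc2, -0.62 ± 0.20 for Dsp and -0.54 ± 0.19 for Pkp2 (adjusted p from 0.0655 to 0.119). Among the 3 nicotine doses alone, a comparison that does not use the saline means shared by the others, limma's F test called 0 members and 0 of all genes tested (0%), with 2 members (Dsp and Dsg2) and 1068 genes, 7.86% of all tested, at an unadjusted p under 0.05.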

How the data were processed

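Gene expression was read on 8 Affymetrix arrays. The authors deposited 1 linear intensity per probe set and array, for 45101 probe sets. Their background correction and scaling are not given in the sources used here, and no header names a build. Values were taken as log2(intensity + 16). Array medians differed by 0.17 on this scale, and arrays were quantile normalized. Symbols came from the platform annotation, updated by Entrez ID (34741 of 34945 probe sets with 1 gene, while 932 named several genes, 9160 none and 64 were controls). Each gene was represented by its brightest probe set, and genes whose mean level was under 4.94, the 40th percentile over probe sets, were left out. Group means over all 8 arrays were fitted with limma 3.58.1 in R 4.3.3 (4 residual and 6.85 total degrees of freedom). P-values are two-sided and adjusted by Benjamini-Hochberg over all genes tested, with a threshold of 0.05. For probe sets, the same fit ran over all probe sets above the filter. Simulated data had independent noise for each gene and, for the changed genes, the same shift in all nicotine arrays. On them the procedure recovered 84.5% of 4-fold and 25.6% of 2-fold changes for the mean of the doses. For single doses it recovered 68.1% to 71.2% and 5.80% to 6.80%. Across these comparisons 5.73% to 6.89% of calls were false, over 13586 genes. The deposited arrays differed in markers of whole tissues, which the simulation leaves out, so these rates need not hold for them. The main fit used no pairing of arrays by replicate number. The number of arrays limits the precision.

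All members and the marker genes that the text names by rule (members, other desmosome genes, up to 4 genes of a list with the smallest p, a few fixed keratins and adhesion genes, and 4 nearest patterns for Dsp, Pkp1 and Pkp2) were chosen with earlier results of these data known. No column was left unused (0).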

Additional observations from a re-analysis of the deposited data

Results flagged for a closer look

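Dsp is given a closer look for the order of the arrays in its brightest probe set, 1435494_s_at. Its 2 nicotine 1.5 arrays both lay above the saline arrays, and all arrays of the 3.0 and 4.5 doses lay below them. The difference between doses was -3.06 ± 0.53 log2 units for nicotine 3.0 minus 1.5 and -3.38 ± 0.53 for 4.5 minus 1.5, in comparisons chosen after the data were seen. Their unadjusted p was 0.000708 and 0.000397, and limma's adjusted p over all genes, 0.247 and 0.686, did not pass. Of 13586 genes tested, 1472 and 963 had an unadjusted p under 0.05 in these 2 comparisons, and 0 passed after adjustment. In the second probe set, 1435493_at, nicotine 1.5 replicate 2 lay between the saline arrays, at 9.09 with saline at 9.23 and 8.67.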

How the results depend on the processing

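All 17 alternatives kept Dsg2 and Dsc2 changed for the averaged doses (adjusted p up to 0.0218 and 0.0452). With values as deposited, 0 members changed at 1.5 mg/kg/day, 203 genes had a slope (109 in the main setting), and the median of all genes at 4.5 was -0.06, against 0.06 after normalization. Higher calls were then 346 with 926 lower for the mean of the doses (main 646 and 734), 30 and 232 at 1.5 (99 and 238), 99 and 363 at 3.0 (183 and 323), 206 and 736 at 4.5 (395 and 539) and 41 and 162 for the slope (39 and 70). Centring on medians gave 56 and 262 at 1.5, and for the slope 2 genes (2 higher, 0 lower) and 0 members. A constant of 1, with 13513 genes tested, gave 157 genes and 0 members at 1.5 and 164 genes for the slope. It gave 362 genes and 1 member at 3.0, and 739 genes and 1 member at 4.5. No level filter, with 18193 genes tested, gave 403 genes and 0 members at 1.5 and 1 gene and 0 members for the slope. A filter at the 60th percentile gave 242 genes for the slope. The mean of probe sets, with 12965 genes tested, gave 353 genes and 2 members at 1.5 and 1 gene and 0 members for the slope. The replicate block gave 849 genes for the mean of the doses (main 1380), 157 with 0 members at 1.5 (337 and 1), 278 at 3.0 (506), 522 at 4.5 (934) and 0 genes and members for the slope. Deviations of arrays with the same replicate number correlated at -0.22 to 0.33. With 2 arrays a group these values cannot settle whether the numbers pair the arrays, and the labels do not say. Array weights gave 618 genes for the mean, 130 and 0 members at 1.5, 441 at 4.5, and 1 gene and 0 members for the slope. Without the 2 arrays highest in liver genes, which leaves single arrays assumed to vary like the rest, 4 members changed with the mean, 2 (560 genes) at 1.5, 5 at 4.5, 2 (135 genes) among doses and 0 (0 genes) for the slope, with 896 genes at 3.0. Leaving out 1 array at a time gave 355 to 1490 genes and 2 to 3 members for the mean, 104 to 911 and 0 to 3 at 1.5, 52 to 994 and 0 to 3 at 3.0, 154 to 1367 and 1 to 4 at 4.5, 0 to 792 and 0 to 2 for the slope, and 0 to 12 genes among doses. The lowest counts came without either nicotine 3.0 array for the mean (355 and 366), 1.5 (104 and 104) and 3.0 (75 and 52), and without either nicotine 4.5 array for 4.5 (190 and 154). Signs turned, with no such value passing, for Pkp3 (-0.65 to 0.35 for the mean, -0.61 to 1.62 at 1.5, -0.94 to 0.062 at 3.0, and 0.13 for the mean with averaged probe sets), Pkp1 (-0.061 to 1.53 for the mean, -0.73 to 0.85 at 3.0, -0.55 to 1.03 at 4.5), Dsc3 (-0.34 to 0.81 for the mean, -0.28 to 2.54 at 1.5, -0.46 to 0.68 at 3.0, -1.10 to 0.041 at 4.5), Ppl (-0.09 to 0.28 at 3.0, -0.47 to 0.85 at 4.5), Jup (-0.037 to 0.73 at 4.5) and Pkp2 (-2.40 to 1.14 at 1.5) as single arrays were left out. At 3.0 they also turned with values as deposited for Dsc3 (-0.005), Pkp1 (-0.031) and Ppl (-0.022), and without the 2 arrays highest in liver genes for Dsc3 (-0.46) and Pkp1 (-0.73, and -0.56 at 4.5). Causes were not tested.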
